A study of Drosophila melanogaster with 4 samples.

Results

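The *Drosophila melanogaster* Zip family holds 10 genes, and all 10 were found by FlyBase symbol among the 17023 genes of the deposited count tables: *Zip89B*, *Zip99C*, *Zip88E*, *Zip71B*, *Zip48C*, *Zip42C.1*, *Zip42C.2*, *Zip102B*, *foi* (fear of intimacy) and *Catsup* (Catecholamines up). The members were taken by family membership, but the family itself was chosen by its levels and fold changes between these same libraries. The difference between the 2 genotypes in the family's own transcripts is therefore described here and not tested. Poly(A) RNA came from ovaries dissected 2 to 3 days after eclosion, with 2 libraries labelled Nipped_A RNAi and 2 labelled bam RNAi. All flies carried UAS-Dcr2, which strengthens RNA interference, and nosGAL4, which drives the hairpins in the germ cells and not in the somatic cells of the ovary. One hairpin targeted *Nipped-A*, a very large scaffold subunit of both the Tip60 and the SAGA acetyltransferase complex, and the other targeted *bam* (bag of marbles), the differentiation factor of germline stem cell daughters. There was no untreated genotype, so each knockdown could be set only against the other. Whether the 2 libraries of a genotype stem from separate fly pools is not stated in the labels, and p-values below measure only the spread between these samples, which may be technical.

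Zip proteins, the SLC39 family, carry zinc into the cytosol, from outside the cell or from the lumen of organelles. ZnT proteins, the SLC30 family, carry it the other way, out of the cytosol. Metallothioneins bind surplus zinc and copper in the cytosol, and the transcription factor MTF-1 switches their genes on when metal rises. In the fly, single Zip genes are known for uptake in the gut, for excretion through the Malpighian tubules (the renal organ), for supply of the secretory pathway and, for *foi*, for the formation of the gonad.

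Depth was 47825006 and 21193517 counts for Nipped_A RNAi 1 and 2, and 33844807 and 23866988 counts for bam RNAi 1 and 2. *Nipped-A* itself went against its label: it averaged 434 ± 6.16 CPM in the Nipped_A RNAi libraries and 267 ± 28.4 CPM in the bam RNAi libraries (mean ± SD, n = 2 each; CPM, counts scaled to library size). Directions below therefore follow the library labels, and a lower *Nipped-A* transcript is not implied by them. *bam* averaged 22.9 ± 8.60 CPM in the Nipped_A RNAi libraries and 5.61 ± 1.29 CPM in the bam RNAi libraries. Markers of other tissues also moved with the labels. The 19 midgut digestive enzymes listed summed to 1507 and 6976 CPM in the Nipped_A RNAi libraries and to 9.92 and 10.6 CPM in the bam RNAi libraries. The 9 muscle sheath genes summed to 8033 and 10751 CPM in the Nipped_A RNAi libraries and to 26877 and 26703 CPM in the bam RNAi libraries. The 8 germ cell genes summed to 2625 and 1596 CPM in the Nipped_A RNAi libraries and to 892 and 837 CPM in the bam RNAi libraries. This list was not uniform. *aub* had 138 and 108 CPM in the Nipped_A RNAi libraries and 195 and 188 CPM in the bam RNAi libraries. *tej* had 66.9 and 49.7 CPM in the Nipped_A RNAi libraries and 73.8 and 83.1 CPM in the bam RNAi libraries. In the fit described below 4 of the 8 were called higher and none lower, beside 11.3% and 8.31% of all genes. The labelled tissue was thus present in all 4 libraries. *osk*, a germ plasm gene of the oocyte, had counts in every library. The 11 follicle and escort cell genes summed to 14069 and 14652 CPM in the Nipped_A RNAi libraries. In the bam RNAi libraries they summed to 8044 and 8627 CPM. This list was mixed too. Of the 11, 5 were called higher, among them the yolk protein genes *Yp1*, *Yp2* and *Yp3*, and 1, *eya*, was called lower. *tj*, *ptc* and *Wnt4* were not called but were lower in both Nipped_A RNAi libraries.

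The family was present in every library at levels from 0.09 to 78.1 RPKM (CPM per kilobase of exon), and its composition differed more than its total. Summed per kilobase of exon, the 10 genes reached 226 and 267 RPKM in the Nipped_A RNAi libraries and 282 and 293 RPKM in the bam RNAi libraries. Without *Zip89B* the sums were 221 and 262 RPKM in the Nipped_A RNAi libraries and 217 and 221 RPKM in the bam RNAi libraries, and the groups did not overlap, with 221.2 RPKM in Nipped_A RNAi 1 against 220.7 RPKM in bam RNAi 2 at the nearest. *Zip89B* made up 2.22 ± 0.04% of the family's RPKM in the Nipped_A RNAi libraries and 23.7 ± 1.27% in the bam RNAi libraries (mean ± SD, n = 2 each). *Zip99C* made up 26.2 ± 0.78% and led the family in the Nipped_A RNAi libraries, against 15.8 ± 0.43% in the bam RNAi libraries. All 10 genes passed the filter on low counts and entered the fit across 10245 genes. In that fit 1 of the 10, *Zip89B*, was past the threshold of 0.05 (edgeR quasi-likelihood test with Benjamini-Hochberg adjustment), as were 19.6% of all genes tested, and nothing is read from that count because the family was chosen with this contrast known. That count was 0 without bam RNAi 1 or 2, as for all genes, 5 without Nipped_A RNAi 1 (36.2% of all genes), 4 without Nipped_A RNAi 2 (38.8%) and 5 with DESeq2 (34.4%). The median log2 fold change of the 10 was 0.21, and that of all genes tested was −0.00.

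**Figure D1:**
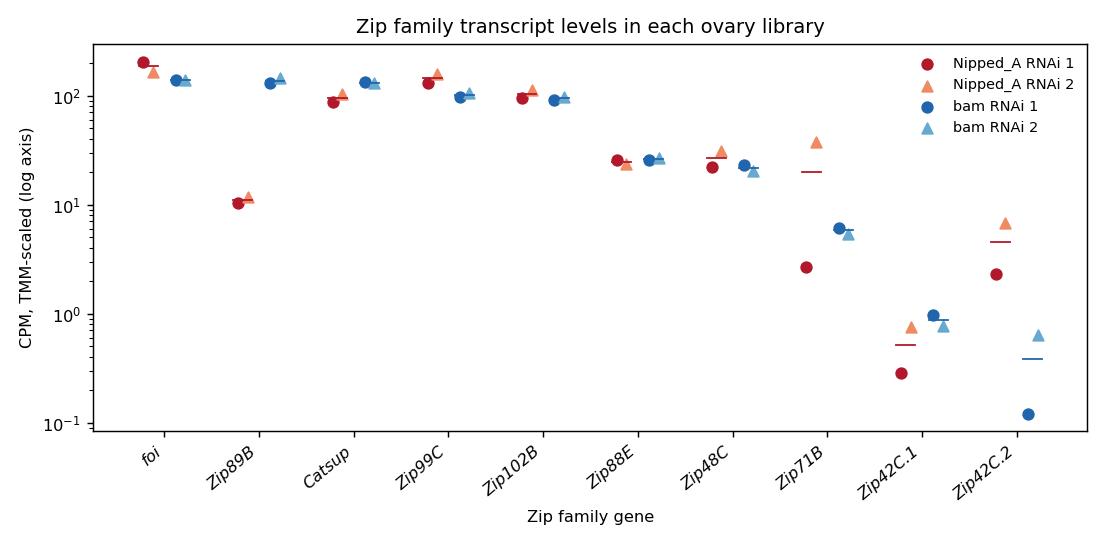
Level of each Zip family gene in each library, in CPM on a log axis. Circles are libraries numbered 1, triangles libraries numbered 2, red the Nipped_A RNAi libraries and blue the bam RNAi libraries; the short lines are the means of 2 libraries. *Zip89B* lies at 10.3 and 11.8 CPM in the Nipped_A RNAi libraries and at 129 and 145 CPM in the bam RNAi libraries, and the 2 Nipped_A RNAi libraries lie far apart for *Zip71B*.

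Per kilobase of exon, the order in the Nipped_A RNAi libraries was *Zip99C* (64.7 ± 9.51 RPKM), *Catsup* (56.1 ± 6.01), *foi* (44.0 ± 6.59), *Zip102B* (33.9 ± 4.16), *Zip88E* (16.1 ± 0.98), *Zip48C* (14.2 ± 3.39), *Zip71B* (8.38 ± 10.3), *Zip89B* (5.49 ± 0.54), *Zip42C.2* (3.55 ± 2.45) and *Zip42C.1* (0.40 ± 0.25). The ranges of the 2 libraries overlapped between *Zip99C* and *Catsup* and between each neighbour in the run *Zip88E*, *Zip48C*, *Zip71B*, *Zip89B* and *Zip42C.2*. In the bam RNAi libraries the order was *Catsup* (77.5 ± 0.88 RPKM), *Zip89B* (68.3 ± 5.52), *Zip99C* (45.4 ± 2.48), *foi* (33.1 ± 0.30), *Zip102B* (31.1 ± 1.48), *Zip88E* (17.0 ± 0.71), *Zip48C* (11.6 ± 1.12), *Zip71B* (2.42 ± 0.22), *Zip42C.1* (0.67 ± 0.11) and *Zip42C.2* (0.30 ± 0.29). No neighbours in the bam RNAi order overlapped. *Zip89B* stood above 29.5% of the genes tested in the Nipped_A RNAi libraries and above 89.0% in the bam RNAi libraries, by mean RPKM.

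**Figure D2:**
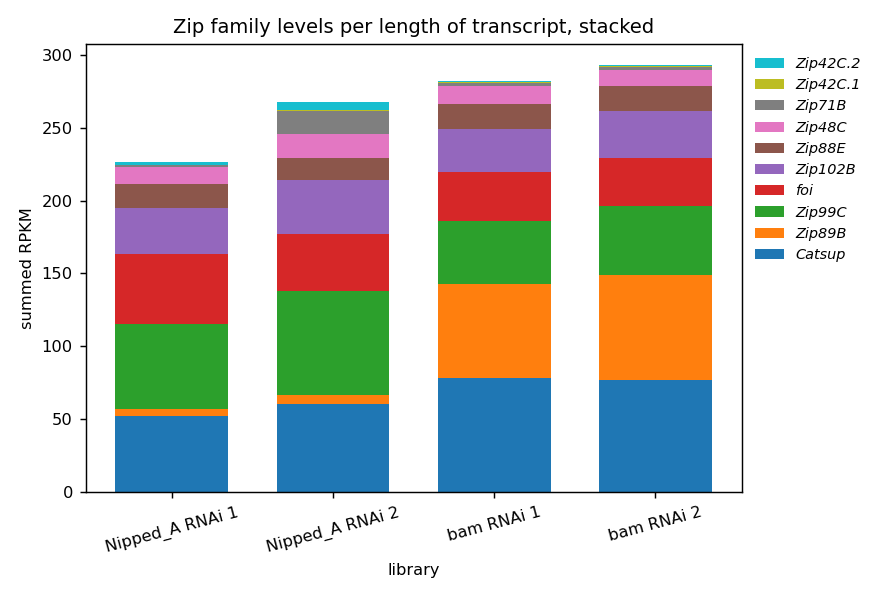
Zip family levels per kilobase of exon (RPKM), stacked for each library, with the 2 Nipped_A RNAi libraries on the left and the 2 bam RNAi libraries on the right. The *Zip89B* block is 5.10 and 5.87 RPKM high in the Nipped_A RNAi libraries and 64.4 and 72.2 RPKM high in the bam RNAi libraries.

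The genes known for zinc uptake from the gut lumen are *Zip89B*, *Zip42C.1* and *Zip42C.2*. *Zip89B*, an importer at the apical membrane of gut cells (dm6 chromosome 3R, 16305758 to 16308700, forward strand, 2 exon blocks), had 10.3 and 11.8 CPM in the Nipped_A RNAi libraries, against 129 and 145 CPM in the bam RNAi libraries. Both libraries of each group lay close together, and the groups did not overlap, as for 68.9% of all genes tested. The fitted difference was 12.5-fold lower in the Nipped_A RNAi libraries, a log2 fold change of −3.64 ± 0.18 (SE, n = 2 each). It lay between −3.70 and −3.55 with any one library left out. Over all genes tested 11.3% were called higher and 8.31% lower. Of the marker lists, the midgut digestive enzymes moved the other way from *Zip89B*, with 19 of 19 higher in the Nipped_A RNAi libraries. Others moved in part the same way as *Zip89B*: 7 of 9 muscle sheath genes and 4 of 8 hemocyte genes were called lower. Neither list had a gene called higher, but the fitted log2 fold changes of the muscle genes *bt* (0.38 ± 0.31, SE) and *sls* (0.19 ± 0.38) were positive. The hemocyte gene *crq* had 384 and 486 CPM in the Nipped_A RNAi libraries and 308 and 279 CPM in the bam RNAi libraries. All hemocyte genes summed to 3537 and 3765 CPM in the Nipped_A RNAi libraries and to 8627 and 7616 CPM in the bam RNAi libraries. Of 7 fat body genes 4 were lower and 2 higher, with sums of 1754 and 1568 CPM in the Nipped_A RNAi libraries and 1014 and 959 CPM in the bam RNAi libraries. *Fbp2* had 0.22 and 0 CPM in the Nipped_A RNAi libraries and 31.2 and 24.0 CPM in the bam RNAi libraries. Of 8 germ cell genes 4 were called higher and 0 lower. Of 11 follicle and escort cell genes 5 were called higher and 1, *eya*, lower. The germ cell genes *aub* and *tej* and the follicle and escort cell genes *tj*, *ptc* and *Wnt4* were lower in both Nipped_A RNAi libraries but not called. The part of these cell types in the level of *Zip89B* was not tested. In bulk tissue, fewer cells that carry a transcript and less of it per cell cannot be told apart.

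*Zip42C.1* and *Zip42C.2* are neighbours on the reverse strand of chromosome 2R, with 488 bases between them (6716342 to 6717707 and 6718196 to 6719533), and both encode importers of the gut epithelium. *Zip42C.1* was barely detected, with 14 and 16 counts (0.28 and 0.75 CPM) in the Nipped_A RNAi libraries, against 32 and 18 counts (0.96 and 0.77 CPM) in the bam RNAi libraries. The groups did not overlap in CPM. The 95% counting intervals (exact Poisson) were 0.16 to 0.48 and 0.43 to 1.22 CPM in Nipped_A RNAi 1 and 2, against 0.66 to 1.36 and 0.45 to 1.21 CPM in bam RNAi 1 and 2. Those of the libraries numbered 1 were apart and those of the libraries numbered 2 nearly coincided. The fitted log2 fold change was −0.78 ± 0.84 (SE), smaller than its error.

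*Zip42C.2* had 114 and 144 counts (2.32 and 6.75 CPM) in the Nipped_A RNAi libraries, against 4 and 15 counts (0.12 and 0.64 CPM) in the bam RNAi libraries. It was the family member with the highest fold change, 12.1-fold higher in the Nipped_A RNAi libraries (log2 3.60 ± 1.02, SE), on a low level in each group. The groups did not overlap, and the value was 2.69 without Nipped_A RNAi 2 and 5.19 without bam RNAi 2. *Zip42C.2* and the midgut digestive enzymes were both higher in the Nipped_A RNAi libraries than in the bam RNAi libraries, and higher in Nipped_A RNAi 2 than in Nipped_A RNAi 1, as were all 19 of those enzymes. Of the 19, 3 had no counts in either bam RNAi library. The part of midgut RNA in the level of *Zip42C.2* was not tested.

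*Zip71B*, known for zinc uptake into the Malpighian tubules (chromosome 3L, 14992289 to 14997983, forward strand), had 2.69 and 37.4 CPM in the Nipped_A RNAi libraries, against 6.15 and 5.41 CPM in the bam RNAi libraries. Both bam RNAi libraries lay between the 2 Nipped_A RNAi libraries, so the groups overlapped. The fitted log2 fold change of 1.79 ± 1.11 (SE) rested on 1 library: it was −1.04 without Nipped_A RNAi 2 and 2.68 without Nipped_A RNAi 1. With the replicate number as a block it was 0.81. Of the 7 Malpighian tubule markers matched, 6 were highest in Nipped_A RNAi 2, and the 7 summed to 300 and 848 CPM in the Nipped_A RNAi libraries and to 613 and 594 CPM in the bam RNAi libraries. *Uro*, which encodes urate oxidase, had 12.1 and 180 CPM in the Nipped_A RNAi libraries and 73.8 and 74.2 CPM in the bam RNAi libraries. *Oatp58Dc*, an organic anion transporter gene, had 2.89 and 94.3 CPM in the Nipped_A RNAi libraries and 27.9 and 23.0 CPM in the bam RNAi libraries. *Uro*, *Oatp58Dc* and *Zip71B* were thus lowest in Nipped_A RNAi 1 and highest in Nipped_A RNAi 2, as was *salt*, at 5.76 and 192 CPM in the Nipped_A RNAi libraries and 11.4 and 16.1 CPM in the bam RNAi libraries. *Irk3*, *CapaR* and *CG3014* were highest in Nipped_A RNAi 2 but lowest in a bam RNAi library. *Best2*, the largest single part of the sum in each library, differed from all of these. It had 269 and 330 CPM in the Nipped_A RNAi libraries and 494 and 470 CPM in the bam RNAi libraries. None of the 7 markers was at 0 in any library, and their part in the level of *Zip71B* was not tested.

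**Figure D3:**
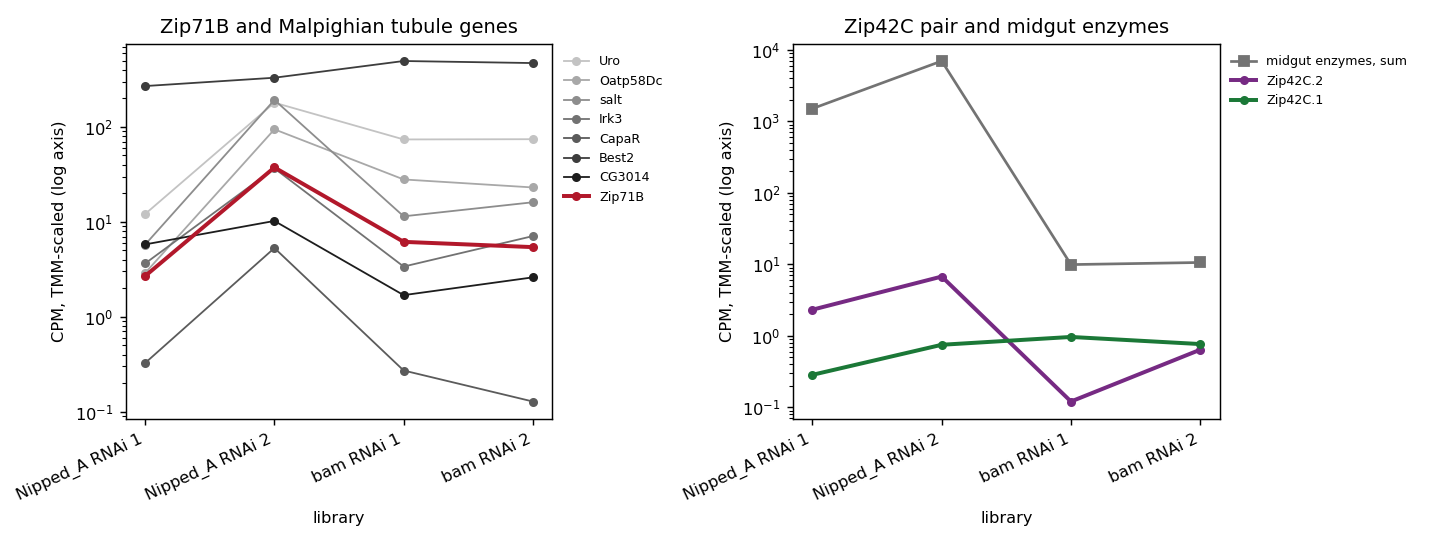
Left, *Zip71B* (red) and the 7 Malpighian tubule markers (greys); right, *Zip42C.2*, *Zip42C.1* and the sum of 19 midgut digestive enzymes. The vertical axes give CPM on a log scale and the horizontal axes the 4 libraries, with lines only joining values of one gene. *Zip71B* reaches 37.4 CPM in Nipped_A RNAi 2 and at most 6.15 CPM in the other libraries.

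The fitted differences of *Zip99C*, *Catsup* and *foi* were smaller than those of *Zip89B* and *Zip42C.2*. *Zip99C*, the homologue of mammalian ZIP13, is known in the fly for moving iron into the secretory pathway (chromosome 3R, 29863701 to 29868895, reverse strand, 11 exon blocks). It had 129 and 159 CPM in the Nipped_A RNAi libraries, against 96.9 and 105 CPM in the bam RNAi libraries. The groups did not overlap, with a log2 fold change of 0.51 ± 0.16 (SE). It was 0.30 under upper-quartile scaling, 0.42 without Nipped_A RNAi 2 and 0.65 without Nipped_A RNAi 1.

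*Catsup*, the homologue of mammalian ZIP7, sits in membranes of the endoplasmic reticulum and Golgi and is known as a negative regulator of tyrosine hydroxylase (chromosome 2L, 19041862 to 19043614, forward strand). It had 88.0 and 102 CPM in the Nipped_A RNAi libraries, against 133 and 130 CPM in the bam RNAi libraries. The groups did not overlap, with a log2 fold change of −0.47 ± 0.14 (SE). It was −0.32 with the trend on gene length removed and −0.68 under upper-quartile scaling. *Catsup* shares 80 exonic bases with *Ttc19* on the opposite strand, a gene with 5.78 and 7.59 CPM in the Nipped_A RNAi libraries and 14.98 and 12.66 CPM in the bam RNAi libraries. The strand setting of the counting is not given in the sources used here, so the split of reads where members overlap another gene is uncertain.

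*foi*, a plasma membrane member needed for E-cadherin expression and for gonad formation in the embryo (chromosome 3L, 8525244 to 8534503, forward strand), had 205 and 166 CPM in the Nipped_A RNAi libraries, against 140 and 138 CPM in the bam RNAi libraries. The groups did not overlap, with a log2 fold change of 0.41 ± 0.15 (SE). The log2 fold change of *foi* was 0.20 with the length trend removed and 0.20 under upper-quartile scaling. It was 0.24 without Nipped_A RNAi 1 and 0.62 without Nipped_A RNAi 2. *foi* has 4210 exonic bases, the most in the family.

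*Zip102B*, the homologue of mammalian ZIP9 (chromosome 4, 310930 to 314087, reverse strand), had 94.2 and 112 CPM in the Nipped_A RNAi libraries, against 91.6 and 97.9 CPM in the bam RNAi libraries, and the groups overlapped. Its log2 fold change was 0.12 ± 0.15 (SE), and −0.09 under upper-quartile scaling, which moved the median of all genes to −0.21. *Zip88E* (chromosome 3R, 15268662 to 15270532, forward strand) had 25.9 and 23.8 CPM in the Nipped_A RNAi libraries, against 25.4 and 27.0 CPM in the bam RNAi libraries. Its log2 fold change was −0.08 ± 0.19 (SE), with a sign that turned to 0.11 with the length trend removed and to 0.05 without Nipped_A RNAi 2. *Zip88E* shares 101 exonic bases with *Cp190* on the opposite strand. *Zip48C*, a single-exon gene (chromosome 2R, 11899517 to 11901394, forward strand), had 22.2 and 31.2 CPM in the Nipped_A RNAi libraries, against 23.2 and 20.2 CPM in the bam RNAi libraries. Its log2 fold change was 0.30 ± 0.25 (SE). The groups overlapped for *Zip88E* and *Zip48C* too.

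In all, 3 members were higher in both Nipped_A RNAi libraries than in both bam RNAi libraries, as were 33.6% of all genes tested: *Zip42C.2*, *Zip99C* and *foi*. Another 3 were lower in both, as were 35.3% of all genes tested: *Zip89B*, *Catsup* and *Zip42C.1*. Nothing is read from these counts either.

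The genes whose pattern over the 4 libraries lay nearest to a member were taken by the distance between log2 CPM values centred on each gene's mean, among 7847 or 7848 genes with a mean of at least 4 CPM. For *Zip89B* the nearest were *mtsh* (mitoshell) at a distance of 0.30, *CG13067* at 0.31 and *RpS19b*, a paralog of a small-subunit ribosomal protein gene, at 0.32, with 37 genes within 1. *RpS19b* had 5.21 and 7.08 CPM in the Nipped_A RNAi libraries and 87.2 and 97.0 CPM in the bam RNAi libraries. *CG13067* had 43.5 and 58.4 CPM in the Nipped_A RNAi libraries and 475 and 573 CPM in the bam RNAi libraries. For *Zip42C.2* the nearest were *CG18480* at 0.51, *CG6125* at 0.56 and the UDP-glycosyltransferase gene *Ugt37A3* at 0.71, with 8 genes within 1. *CG6125* had 30.4 and 107 CPM in the Nipped_A RNAi libraries and 3.07 and 7.20 CPM in the bam RNAi libraries. With 4 libraries such likeness is a description only.

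The exporters of the ZnT family were compared with the same fit across all genes. *ZnT35C* rose in the Nipped_A RNAi libraries, and none of the other ZnT genes tested passed. *ZnT35C*, which loads zinc into vesicles and is known from the zinc stores of the Malpighian tubules, had 39.1 and 35.2 CPM in the Nipped_A RNAi libraries, against 6.39 and 9.55 CPM in the bam RNAi libraries. It was 4.67-fold higher (log2 2.22 ± 0.28, SE; adjusted p = 0.0137 by the edgeR test), higher in 2 of 2 libraries and nearly even between the Nipped_A RNAi libraries, unlike *Zip71B*. The call ended without bam RNAi 1 or 2 (edgeR, Benjamini-Hochberg adjusted p = 0.128 and 0.142), settings in which edgeR called no gene at all.

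Of 7 ZnT genes 6 were tested, 1 was called higher and none lower, beside 11.3% and 8.31% of all genes. Their median log2 fold change was 0.18. Without Nipped_A RNAi 1 there were 3 calls (*ZnT35C*, *ZnT63C* and *ZnT41F*), beside 19.7% of all genes higher, and without Nipped_A RNAi 2 there were 2 (*ZnT35C* and *ZnT63C*), beside 23.1%. *ZnT63C*, the most abundant, had 137 and 145 CPM in the Nipped_A RNAi libraries and 109 and 106 CPM in the bam RNAi libraries (log2 0.39 ± 0.13, SE; edgeR, Benjamini-Hochberg adjusted p = 0.0849). DESeq2 called *ZnT63C* as well (adjusted p = 0.00829). *ZnT41F* (0.26 ± 0.24), *ZnT49B* (0.10 ± 0.17), *ZnT86D* (−0.06 ± 0.18) and *ZnT77C* (−0.08 ± 0.26; log2 fold change ± SE) had groups that overlapped. The sign of *ZnT49B* turned under upper-quartile scaling (−0.12), that of *ZnT77C* without Nipped_A RNAi 1 (0.14) or bam RNAi 2 (0.08), and that of *ZnT86D* without Nipped_A RNAi 2 (0.17) or with the length trend removed (0.02). *ZnT33D* had 0 and 0 counts in the Nipped_A RNAi libraries and 1 and 0 in the bam RNAi libraries and was not tested. Per kilobase of exon the 7 summed to 145 and 147 RPKM in the Nipped_A RNAi libraries and to 118 and 119 RPKM in the bam RNAi libraries.

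Among the metallothioneins, *MtnD* rose 16.7-fold, with 4.27 and 20.9 CPM in the Nipped_A RNAi libraries and 0.81 and 0.68 CPM in the bam RNAi libraries (log2 4.06 ± 0.87, SE; edgeR, Benjamini-Hochberg adjusted p = 0.0335). The size of the rise rested on Nipped_A RNAi 2: the log2 fold change was 2.57 without it and 4.78 without Nipped_A RNAi 1. The call ended without bam RNAi 1 or 2 (adjusted p = 0.178 and 0.242, edgeR). Of the list's 7 genes 6 were tested and 1 was called higher, none lower, with a median log2 fold change of 3.48, beside 11.3% higher and 8.31% lower over all genes. DESeq2 called all 6 higher, beside 20.6% of all genes, and edgeR without Nipped_A RNAi 1 did as well, beside 19.7%. Without Nipped_A RNAi 2 it called 3 (*MtnD*, *MtnC* and *MTF-1*), beside 23.1%, and without a filter on low counts 4, beside 11.4%. The other genes of the list were not past the edgeR threshold. *MtnC* had 7.002 and 74.5 CPM in the Nipped_A RNAi libraries and 0.54 and 2.34 CPM in the bam RNAi libraries. Its log2 fold change was 4.85 ± 1.34 (SE), with a Benjamini-Hochberg adjusted p = 0.0602 by edgeR. With the replicate number as a block it was called (adjusted p = 0.00494, edgeR). With robust moderation its SE was 1.91 and it was not called (adjusted p = 0.205, edgeR). *MtnB* had 2.50 and 6.75 CPM in the Nipped_A RNAi libraries and 0 and 0.60 CPM in the bam RNAi libraries (4.004 ± 1.531). *MtnE* had 1.18 and 14.2 CPM in the Nipped_A RNAi libraries and 1.15 and 0.81 CPM in the bam RNAi libraries (2.96 ± 1.17). Without Nipped_A RNAi 2 the log2 fold changes were 2.36 for *MtnC*, 3.17 for *MtnB* and 0.34 for *MtnE*, and without Nipped_A RNAi 1 they were 5.78, 4.56 and 3.84. Without bam RNAi 1 they were 4.13 for *MtnC* and 2.95 for *MtnB*; without bam RNAi 2 that of *MtnC* was 6.22, and *MtnB* was at 0 in the library left.

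*MtnA*, by far the most abundant metallothionein transcript, had 761 and 1771 CPM in the Nipped_A RNAi libraries and 646 and 765 CPM in the bam RNAi libraries (0.84 ± 0.40), and the groups overlapped. Its log2 fold change was 0.17 without Nipped_A RNAi 2 and 1.32 without Nipped_A RNAi 1. *MTF-1* had 101 and 110 CPM in the Nipped_A RNAi libraries and 76.1 and 75.9 CPM in the bam RNAi libraries (0.47 ± 0.14; edgeR, Benjamini-Hochberg adjusted p = 0.065). *MtnF* had 0 and 0 counts in the Nipped_A RNAi libraries and 5 and 0 in the bam RNAi libraries and was not tested. The 5 metallothionein genes tested were higher in Nipped_A RNAi 2 than in Nipped_A RNAi 1, as were the 19 midgut enzymes, whose part in these levels was not tested.

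**Figure D4:**
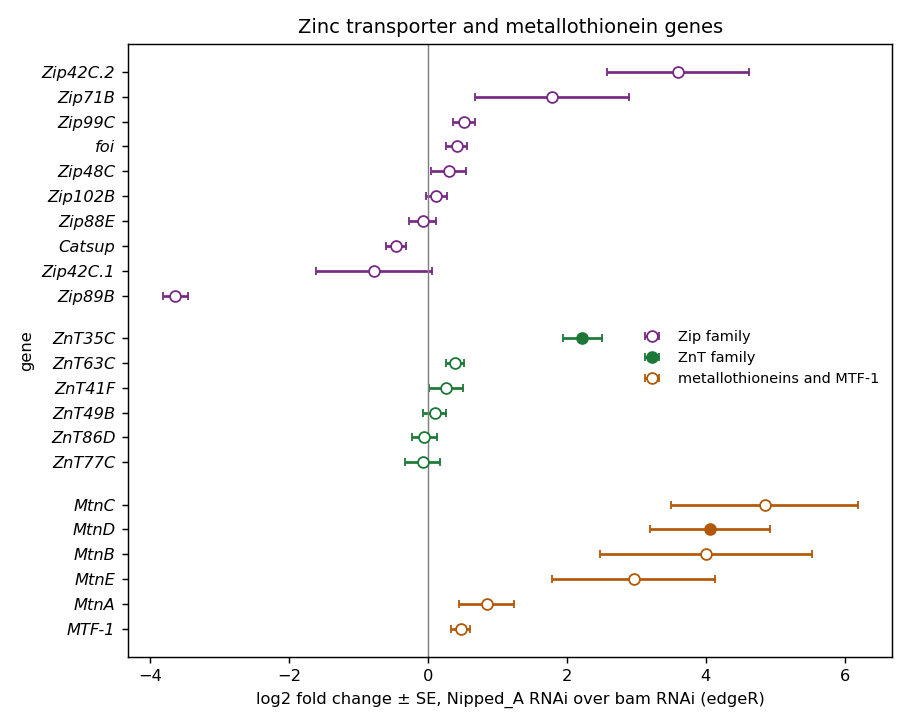
Log2 fold change of Nipped_A RNAi over bam RNAi libraries with its SE, for the 10 Zip genes, the 6 ZnT genes and the 6 metallothionein list genes that were tested. Filled points passed the edgeR threshold of 0.05 in the ZnT and metallothionein lists; the Zip family is drawn open throughout because its difference was not tested. *Zip89B* at −3.64 lies apart from the other Zip genes, and *ZnT35C* lies at 2.22.

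Genes tied to single members were read from the same fit. Beside *Zip99C*, of 8 iron-handling genes matched 7 were tested and 1 rose: *Mvl* (Malvolio), an endosomal metal transporter of the NRAMP family, had 121 and 142 CPM in the Nipped_A RNAi libraries and 68.1 and 65.6 CPM in the bam RNAi libraries (log2 0.97 ± 0.15, SE; edgeR, Benjamini-Hochberg adjusted p = 0.0176). None fell, and the median was 0.36. Over all genes tested 11.3% rose and 8.31% fell. Of 4 copper-handling genes tested none was called by edgeR, 1 had an unadjusted p below 0.05 and DESeq2 called 1, beside 34.4% of all genes called by DESeq2.

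Beside *Catsup*, *ple*, which encodes the tyrosine hydroxylase that Catsup restrains, had 58.0 and 69.6 CPM in the Nipped_A RNAi libraries, against 0.48 and 1.53 CPM in the bam RNAi libraries. It rose 65.0-fold (log2 6.02 ± 0.58, SE; edgeR, Benjamini-Hochberg adjusted p = 0.00996) and was the 1 gene called of 4 catecholamine synthesis genes (11.3% of all genes rose), whose median was 1.16. The log2 fold change of *ple* was 5.39 without bam RNAi 1 and 7.04 without bam RNAi 2. Any part of *Catsup* in the transcript level of *ple* was not tested. *Pu*, the GTP cyclohydrolase gene that supplies the cofactor of tyrosine hydroxylase, had 5.72 and 6.18 CPM in the Nipped_A RNAi libraries and 2.11 and 0.90 CPM in the bam RNAi libraries (1.97 ± 0.57; edgeR, Benjamini-Hochberg adjusted p = 0.0655). *Hn* went the other way, with 13.3 and 10.6 CPM in the Nipped_A RNAi libraries and 16.1 and 15.2 CPM in the bam RNAi libraries (−0.38 ± 0.26). The log2 fold change of *Ddc* was 0.35 ± 0.46, smaller than its error. Of 7 genes of folding and stress in the endoplasmic reticulum 3 fell and none rose, with a median of −0.16, beside 8.31% lower and 11.3% higher over all genes. *ERp60*, a protein disulfide isomerase gene, had 743 and 799 CPM in the Nipped_A RNAi libraries and 1271 and 1288 CPM in the bam RNAi libraries (−0.73 ± 0.12; edgeR, Benjamini-Hochberg adjusted p = 0.0215). The chaperone gene *Calr* (−0.69 ± 0.13) and the transcription factor gene *Xbp1* (−0.56 ± 0.14) fell as well. *PEK* went the other way but was not called, with 201 and 141 CPM in the Nipped_A RNAi libraries. It had 104 and 87.6 CPM in the bam RNAi libraries (0.84 ± 0.21). *Hsc70-3* (0.26 ± 0.12) was also higher in both Nipped_A RNAi libraries and not called. The groups overlapped for *Gp93* (−0.01 ± 0.13) and *crc* (−0.16 ± 0.16). The call of *Xbp1* ended under RLE scaling, library size alone, the replicate block and with the length trend removed, and that of *Calr* with the length trend removed (edgeR, adjusted p = 0.057, 0.0584, 0.0687, 0.0773 and 0.0542 in that order).

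Beside *foi*, of 4 adherens junction genes none was called by edgeR, 3 had an unadjusted p below 0.05 and DESeq2 called 3 (34.4% of all genes); their median was 0.34. *shg*, the E-cadherin gene, had 422 and 518 CPM in the Nipped_A RNAi libraries and 361 and 302 CPM in the bam RNAi libraries (log2 0.50 ± 0.17, SE; edgeR, Benjamini-Hochberg adjusted p = 0.0918). *arm* went the other way, with 702 and 632 CPM in the Nipped_A RNAi libraries and 991 and 922 CPM in the bam RNAi libraries (−0.52 ± 0.13). The log2 fold change was 0.64 ± 0.17 for *p120ctn* and 0.17 ± 0.12 for *alpha-Cat*. These genes were named after their values were seen. The calls of *Mvl*, *ple*, *ERp60*, *Calr* and *Xbp1* also ended without either bam RNAi library. The iron, copper, folding, catecholamine and junction lists had 7, 4, 7, 4 and 4 genes tested, in that order. Over these lists together, edgeR called 5 genes, beside 19.6% of all genes. It called 12 without Nipped_A RNAi 1, beside 36.2%, and 14 without Nipped_A RNAi 2, beside 38.8%.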

How the data were processed

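Poly(A) RNA of 4 ovary libraries was sequenced with a directional kit, per the labels' protocols, and the authors deposited raw counts per gene, 1 table per library. Per the submitters' processing notes, HISAT2 2.1.0 and featureCounts 1.6.0.4 were used on the dm6 build, and edgeR 3.16.5 is also named. Not given in the sources used here are the gene annotation, whether strand was used and how multi-mapping reads were treated. Of 17023 identifiers 16647 matched a symbol and position in the Ensembl annotation on dm6 coordinates, which also gave exonic lengths. The list genes *IRP-1A*, *IRP-1B*, *CCS*, *Pdi*, *CG17522*, *vas*, *br* and *wupA* had no match by symbol.

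Counts were filtered with filterByExpr, scaled with TMM (factors 0.980 to 1.03) and compared with the two-sided quasi-likelihood test of edgeR 4.0.16 (R 4.3.3; biological coefficient of variation 0.332), with Benjamini-Hochberg adjustment over 10245 genes and a threshold of 0.05. Fold changes are Nipped_A RNAi over bam RNAi. The SE is the absolute log2 fold change over the square root of F. RPKM divides scaled CPM by kilobases of exon. Counting intervals (95%, exact Poisson) cover counting error only. Centred patterns used log2 CPM with a prior count of 2. The steps were tested on simulated counts. Alternatives were RLE, upper-quartile and no scaling factors, other filters, DESeq2 1.42.0, robust moderation, a replicate block, removal of the trend on gene length (loess, span 0.5) and each library left out. The members and lists were chosen with earlier results of these data known. Named genes are the 10 members, both targets, every ZnT and metallothionein list gene, up to 3 called genes of each other list with the smallest adjusted p, and the 3 genes nearest in pattern to the members with the highest and lowest fold change. *Uro*, *Oatp58Dc*, *salt*, *Irk3*, *CapaR*, *CG3014*, *Pu*, *shg*, *Yp1*, *Yp2*, *aub*, *tej*, *bt*, *sls*, *crq* and genes that overlap a member were added after their values were seen. So were *arm*, *p120ctn*, *alpha-Cat*, *PEK*, *Hsc70-3*, *Gp93*, *crc*, *Hn*, *Ddc*, *eya*, *tj*, *ptc* and *Wnt4*. A result that involves a withheld item is not reported here.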

Additional observations from a re-analysis of the deposited data

How the results depend on the processing

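DESeq2 called 3521 genes in all (34.4% of those tested) against 2004 by edgeR (19.6%). It called 5 Zip members against 1, 2 ZnT genes against 1 and 6 metallothionein list genes against 1. Of the iron, copper, folding, catecholamine and junction genes it called 15 against 5. The share of all genes called was 23.5% with upper-quartile factors, 18.4% without a filter and 24.3% with the 1 CPM filter. It was 21.3% with robust moderation and 17.7% with the replicate block. Beside these shares, the Zip members called were 2 with upper-quartile factors (*Zip89B* and *Catsup*). They were also 2 without a filter, with robust moderation and with the replicate block (*Zip89B* and *Zip42C.2*). The metallothionein list had 4 calls without a filter and 2 with the replicate block. The other related genes had 9 without a filter, 8 with the 1 CPM filter and 8 with robust moderation. Same-numbered libraries did not deviate together (Pearson r = −0.08 across genes), so the numbers were not taken to pair the libraries; with the replicate block 1813 genes were called.

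With 1 library left out, counts of calls ran from 0 to 4215 for all genes, from 0 to 5 for Zip members, 0 to 3 for ZnT genes, 0 to 6 for metallothionein list genes and 0 to 14 for the other related genes. The lone library was then assumed to vary like the other group. The values of 0 are those without bam RNAi 1 or 2, where edgeR called 0 genes and 2373 and 1837 had an unadjusted p below 0.05. With 1 library left out the log2 fold change of *bam* ran from 1.58 to 2.44 and that of *Nipped-A* from 0.60 to 0.83, and neither was called without bam RNAi 1 or 2. *Nipped-A* also lost its call with upper-quartile factors (0.49) and with the length trend removed (0.26). No result called in the main fit reversed under these alternatives. *Zip71B*, *Zip88E*, *Zip102B*, *ZnT49B*, *ZnT77C* and *ZnT86D* changed sign in the settings given above, and none of them was called in the main fit. *Zip42C.1* was not tested with the 1 CPM filter, and its 14 to 32 counts per library limit what can be said of it.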
